A study of Mus musculus with 8 samples.

Results

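LRH-1 binding was set against open chromatin in the ovary of mice before the ovulatory signal, using the LRH-1 ChIP-seq peak list and the FAIRE-seq peak list of the time before human chorionic gonadotropin (hCG). All peaks of both lists entered, and an LRH-1 peak and a FAIRE peak formed a pair when they shared at least 1 bp. Of 5886 LRH-1 peaks, 3159 (53.7%) overlapped a FAIRE peak, and of 21431 FAIRE peaks, 3127 (14.6%) overlapped an LRH-1 peak, in 3162 pairs. These shares, over every peak of the 2 lists, are the levels against which the groups of peaks described here are read. The 4 peak lists of the series, made before and after hCG, hold 59521 peaks in all.

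Both assays used C57BL/6 mice with intact LRH-1 (genotype LRH-1 +/+) aged 22 to 25 days. Equine chorionic gonadotropin (eCG, 5 IU), a hormone that drives follicle growth, was injected, and tissue was taken 44 hours later, when hCG would be given and follicles had not received the signal to ovulate. In the matching lists after hCG, given in a few places for orientation, the same treatment was followed by 5 IU of hCG and collection 4 hours later. FAIRE was done on granulosa cells released by puncturing the ovary. The tissue label of the ChIP sample also names granulosa cells, but its protocol describes sliced ovarian tissue (n = 5 per condition) fixed for 15 min in 1.1% formaldehyde, so the ChIP sample can hold ovarian cells other than granulosa cells. Their part in the results was not tested, because a peak list carries no expression values with which a cell type could be checked. Each assay is stated to have 2 replicates, yet 1 list per assay was used here, so no value has a replicate error. How the replicates were combined and how deeply they were sequenced are not given in any source used here.

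LRH-1 (liver receptor homolog 1, encoded by Nr5a2) is a nuclear receptor that binds DNA as a monomer at an extended half-site. In granulosa cells of growing follicles it is known for its part in steroid hormone synthesis, and mice that lack it there fail to ovulate. FAIRE (formaldehyde-assisted isolation of regulatory elements) recovers DNA that is not held by nucleosomes, which is typical of active promoters and enhancers, so a FAIRE peak marks open chromatin without naming the protein that binds there.

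LRH-1 summits, the point of highest ChIP signal in each peak, were dense in open chromatin, which here means the listed FAIRE peaks. The FAIRE list holds no score under 40 and lacks 575 peak numbers, so a place outside it need not be closed. FAIRE peaks covered 20.1 Mb, 0.785% of the chromosome stretches between the first and last peak. Per Mb there were 154 LRH-1 summits inside FAIRE peaks and 1.10 outside, a ratio of 140. The exact (Clopper-Pearson) 95% interval of the share of LRH-1 peaks in FAIRE peaks was 52.4% to 55.0%, and that of the share of FAIRE peaks with LRH-1 was 14.1% to 15.1%. Intervals here and in all that follows cover counting error only. Peaks of 1 list come from the same libraries and are not replicates of a condition.

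Most pairs overlapped deeply. In 3092 pairs (97.8%) the LRH-1 summit lay inside the FAIRE peak, and in 2951 (93.3%) the whole LRH-1 peak did. LRH-1 peaks were 219 to 892 bp wide (median 287 bp) and FAIRE peaks 310 to 6542 bp (median 918 bp). The 70 pairs with a summit outside the FAIRE peak had a median of 72.5 bp between summit and edge, with a highest value of 415 bp. Their median LRH-1 fold was 5.05, against 6.01 for summits inside. Few peaks lay near the 1 bp limit. Just inside it, 23 pairs shared 1 to 48 bp, with a median fold of 4.89. Just outside it, 13 LRH-1 peaks lay 1 to 42 bp from a FAIRE peak, also with a median fold of 4.89.

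Over peaks of all widths, LRH-1 peaks with a higher fold lay in open chromatin more often. The fold is the authors' own value per peak, the ChIP signal at the summit over the background expected there, and it ranks peaks within a list. It ran from 2.34 to 30.1 with a median of 5.75. When the list was split by fold into 10 groups of equal size, 245 of 588 peaks (41.7%, interval 37.6% to 45.8%) overlapped a FAIRE peak in the lowest group, with folds up to 4.53. In the highest group, with folds from 8.32, 431 of 589 did (73.2%, 69.4% to 76.7%). In the groups between, from low to high, the share was 43.8%, 49.1%, 46.3%, 50.4%, 50.5%, 53.0%, 61.6% and 67.1%. The share was above that of the whole list in the 3 highest groups alone. The −log10 q-value of the peak caller gave a similar range, from 37.9% in its lowest group to 77.4% in its highest.

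**Figure D1:**
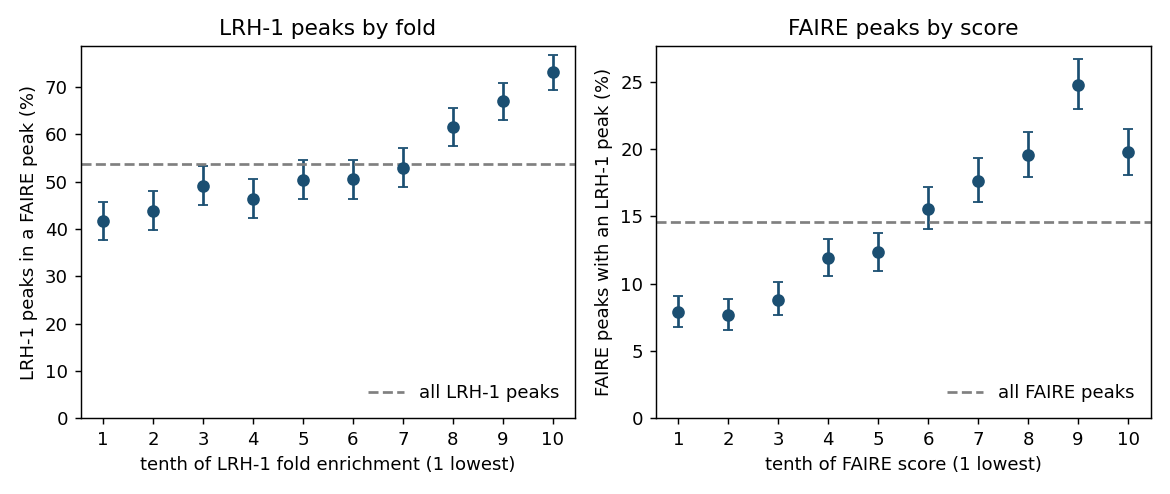
Share of peaks that overlapped a peak of the other list, for LRH-1 peaks in 10 equal groups by fold (left) and FAIRE peaks in 10 equal groups by score (right). Points are shares in percent, bars are exact 95% intervals and the dashed line is the share over the whole list (53.7% and 14.6%). The LRH-1 share climbs to 73.2% in the highest group, whereas the FAIRE share peaks at 24.8% in the group next to the highest.

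Even the lowest folds were not free of open chromatin. Of the 118 peaks in the lowest 2% by fold, with folds up to 4.05, 56 (47.5%, 38.2% to 56.9%) overlapped a FAIRE peak. The peaks of highest fold did not all overlap one either. Among the 10 highest, 6 did, among the 50 highest 39 (78.0%), among the 100 highest 81 (81.0%) and among the 200 highest 153 (76.5%). The 3 highest folds outside listed FAIRE peaks had ranks 1, 2 and 4 in the whole LRH-1 list.

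Wider LRH-1 peaks also overlapped open chromatin more often, with 41.5% in the narrowest of 5 equal groups and 68.3% in the widest. LRH-1 width and fold are tied (Spearman's rho 0.484 over 5886 peaks), so both were crossed in 5 groups each. Within the lowest fold group the share had no steady course with width, at 40.3% in the narrowest LRH-1 peaks (n = 459), then 45.9%, 44.5% and 38.5%, and 47.7% in the widest (n = 109). From the narrowest to the widest peaks, the share went from 43.5% to 62.9% in the second fold group. In the third it went from 40.9% to 63.2%. In the fourth it was 50.8% in the second-narrowest peaks and 64.0% in the widest. Within the highest fold group the share was 50.9% in the second-narrowest group (n = 55), then 64.3% and 65.8%, and 77.7% in the widest (n = 524). The fold was not level across these width groups, with medians of 7.58, 7.84, 8.32 and 8.85. Only 2 peaks of the highest fold group were in the narrowest group.

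As populations, LRH-1 peaks inside and outside open chromatin overlapped broadly in strength. The median fold was 5.99 inside (interval of the median 5.92 to 6.06, n = 3159) and 5.50 outside (5.48 to 5.54, n = 2727). The middle 50% of peaks ran from 5.18 to 7.21 inside and from 4.89 to 6.33 outside. The upper tails lay further apart, with a 90th percentile of 8.85 inside and 7.45 outside. The single highest fold, 30.1, was outside, while the highest inside was 21.8. The median −log10 q was 9.80 inside and 7.83 outside, and the median LRH-1 width 303 bp and 272 bp.

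Seen from the open chromatin, LRH-1 was most frequent at FAIRE peaks of high but not the highest score. The FAIRE score is a number the authors deposited with each peak; its scale is not given in any source used here, and it serves only to rank peaks within the list. It ran from 40.01 to 2338.7, with a median of 70.49. In 10 equal groups by score, the share of FAIRE peaks with LRH-1 was 7.89% in the lowest (169 of 2143 peaks, 6.78% to 9.11%) and 7.65% in the next. It then rose through 8.82%, 11.9%, 12.3%, 15.6%, 17.6% and 19.6% to 24.8% in the ninth group (531 of 2143, 23.0% to 26.7%). In the tenth, with scores from 192.3, it was 19.8% (424 of 2144, 18.1% to 21.5%), and the intervals of the last 2 groups did not meet.

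The lower share at the top of the list was most marked in the best-scoring 1% of FAIRE peaks. Of these 214 peaks, with scores from 487, 18 (8.41%, 5.06% to 13.0%) overlapped an LRH-1 peak, which is under the 14.6% of the whole list. The share was 17.5% for peaks from there to the best 5%, 23.9% from there to the best 10%, and 24.7% from there to the best 20%. It was 17.6% from there to the best 50%, and 9.71% in the lower-scoring 50%. None of the 10 FAIRE peaks of highest score had an LRH-1 peak (upper interval limit 30.8%), 3 of the best 50 did, 8 of the best 100 and 17 of the best 200. Of the 196 FAIRE peaks of the best 1% without LRH-1, 21 (10.7%, 6.76% to 15.9%) had an LRH-1 peak within 10 kb, against 9.44% to 11.6% in the other score ranges, so LRH-1 peaks nearby were about as frequent there.

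**Figure D2:**
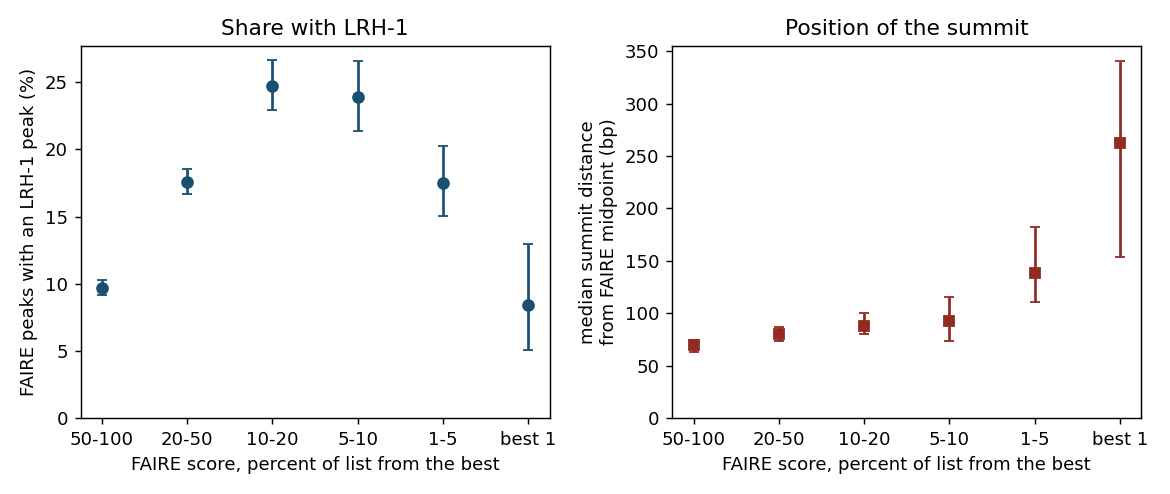
Share of FAIRE peaks with an LRH-1 peak (left) and median distance of the LRH-1 summit from the FAIRE midpoint in bp (right), by score range counted from the best peak. Bars are exact 95% intervals on the left and intervals of the median on the right. The best 1% had the lowest share, 8.41%, and the largest distance, 262 bp, over 18 pairs.

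Width told the same peaks apart in another way. The share of FAIRE peaks with LRH-1 was 5.79% in the narrowest of 10 equal width groups (310 to 687 bp) and 28.3% in the widest (1182 to 6542 bp). A wider peak offers more sequence for an overlap, so the number of LRH-1 summits per Mb of FAIRE peak was taken as well. It was 90.02 in the narrowest group, 235 in the ninth and 197 in the widest. By score it was 97.5 per Mb in the lowest group, 233 in the ninth, 178 in the highest, and 72.9 in the best 1%.

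Score and width of FAIRE peaks were themselves related (rho 0.439 over 21431 peaks), and crossing them in 5 groups each separated the share by width from the share by score. Among the narrowest FAIRE peaks (310 to 769 bp) the share with LRH-1 was between 5.73% and 8.65% in every score group. Among the widest (1049 to 6542 bp) it was 9.38% in the lowest score group, then 12.7%, 22.4% and 28.4%, and 31.1% in the highest (641 of 2064 peaks). A high score without width thus came with few LRH-1 peaks, 30 of 375 peaks (5.46% to 11.2%) in the narrowest of the highest score group. The best 1% by score were not narrow, with a median of 1112.5 bp, and 125 of the 214 were in the widest of the 5 groups. Of these 125, 11 (8.80%, 4.48% to 15.2%) had LRH-1, against 25.4% of peaks of like width from there to the best 5%, 33.5% to the best 10% and 35.4% to the best 20%.

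**Figure D3:**
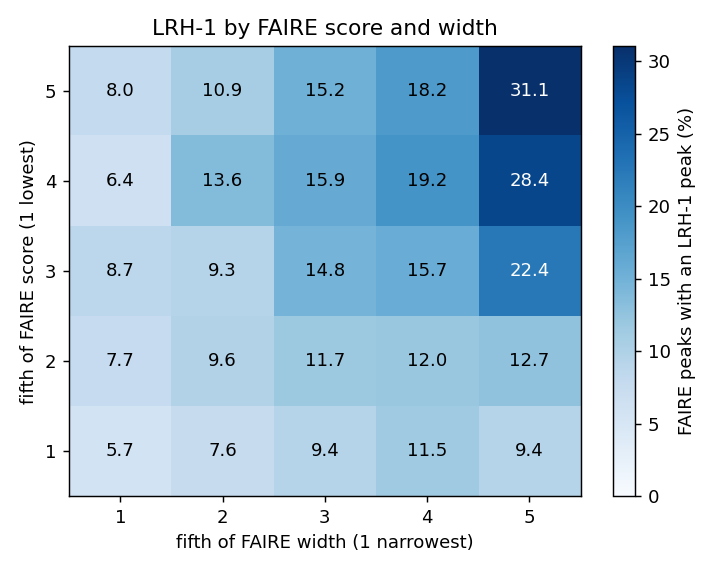
Share of FAIRE peaks with an LRH-1 peak, in percent and as colour, by 5 equal groups of FAIRE score (vertical) and 5 of FAIRE width (horizontal). The narrowest column stays between 5.73% and 8.65%, and the widest climbs from 9.38% to 31.1%.

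Where a FAIRE peak held LRH-1, the fold of the LRH-1 peak varied little with the FAIRE score. Over the 3162 pairs, fold and FAIRE score had a Spearman's rho of 0.114, and a rho of 0.114 with FAIRE width held constant. Fold and FAIRE width had a rho of 0.033. These are descriptions across peaks that share 1 library per assay. The −log10 q was more related to both, with rho of 0.149 for score and 0.103 for width. With the pairs in 10 equal groups by FAIRE score, the median fold was 5.80 in the lowest group and 6.33 in the highest. The 90th percentile of fold went from 8.33 to 10.9, so the upper tail moved more than the middle.

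**Figure D4:**
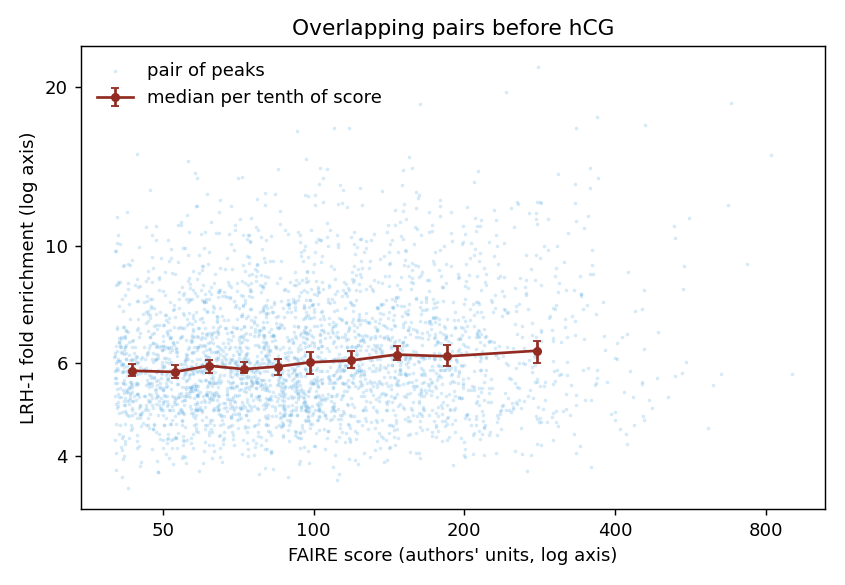
LRH-1 fold against FAIRE score for the 3162 overlapping pairs, both on log axes. Small points are pairs and large points are the median fold in 10 equal groups by score with the interval of the median; the medians run only from 5.80 in the lowest group to 6.33 in the highest.

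The few LRH-1 peaks in the best-scoring 1% of FAIRE peaks had a median fold of 7.57, with a wide interval (5.72 to 10.9, 18 pairs). The median in the lower-scoring 50% was 5.81 (5.75 to 5.92, 1045 pairs).

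LRH-1 summits lay close to the middle of FAIRE peaks. The median distance from the midpoint was 80.5 bp (interval 77 to 84.5 bp), the middle 50% of pairs ran from 36.5 to 168.5 bp, and the farthest summit was 1131 bp away. The central 33.3% of the FAIRE peak's width held 2408 of 3162 summits (76.2%, 74.6% to 77.6%) and the central 20% held 1832 (57.9%, 56.2% to 59.7%). Cut into 10 equal slices along their width, FAIRE peaks held 27, 50, 168, 360, 927, 905, 388, 164, 66 and 37 summits from one end to the other. The 2 outer slices together held 64 summits (2.02% of all 3162 pairs, including the 70 with a summit outside the FAIRE peak). No side was preferred, as 1569 of 3156 summits off the exact midpoint (49.7%, 48.0% to 51.5%) lay on the side of lower coordinates.

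Summits of higher fold were closer to the midpoint. In 5 equal groups of pairs by fold, the median distance was 115 bp in the lowest (104.5 to 131.5 bp), then 83.0, 75.5 and 74.0 bp, and 66.5 bp in the highest (62 to 74 bp). The share of summits in the central 33.3% was 63.8% in the lowest group and 84.4% in the highest, and the intervals of these groups were far apart (59.9% to 67.5% and 81.3% to 87.1%). Across pairs, fold and distance had a rho of -0.154.

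**Figure D5:**
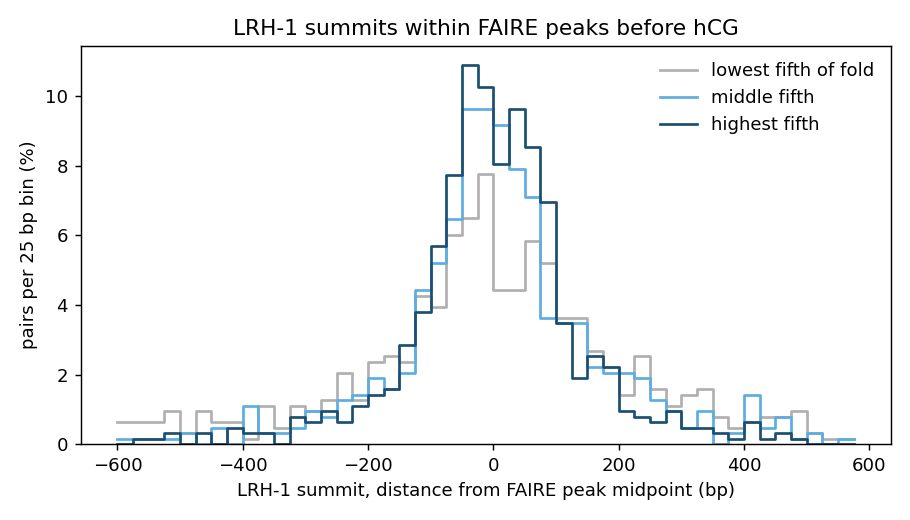
Distribution of LRH-1 summits around the FAIRE peak midpoint, in percent of pairs per 25 bp bin, for the lowest, the middle and the highest of 5 equal groups of pairs by fold. All 3 are highest around the midpoint, and the group of lowest fold is the flattest, with a median distance of 115 bp against 66.5 bp in the group of highest fold.

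In bp, distance from the midpoint was also longer in FAIRE peaks of higher score, which were wider except at the very top. The median was 69.5 bp in the lower-scoring 50%, 80.0 bp from there to the best 20%, 87.5 bp to the best 10%, 92.8 bp to the best 5%, 138.5 bp to the best 1% and 262 bp in the best 1% (154 to 341 bp, 18 pairs). The median FAIRE width of these pairs was 902 bp in the lower-scoring 50% and 1149.5 bp from the best 10% to the best 5%. It was 1179 bp from the best 5% to the best 1% and 1115 bp in the best 1%, where the distance was longest. As a percentage of FAIRE width the median distance was level over the first 4 of these ranges, at 7.84%, 8.27%, 7.95% and 7.90%, and 78.5%, 76.1%, 76.9% and 75.6% of summits were in the central 33.3%. From the best 5% to the best 1% it was 11.3% of the width (8.98% to 13.5%), with 64.3% of summits in the central 33.3%, and in the best 1% it was 23.3% (15.9% to 29.2%). Only 33.3% of the summits in the best 1% were in the central 33.3% of the peak's width, the share an even spread would give, with an interval of 13.3% to 59.0%. By FAIRE width, in 5 equal groups of pairs, the median was 80.0, 69.5, 63.5, 63.8 and 191.5 bp. As a percentage of FAIRE width it was 10.6%, 7.67%, 6.37%, 5.83% and 13.4%, so both scales were highest in the widest group, above 1181 bp.

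Nearly every FAIRE peak with LRH-1 had a single LRH-1 peak: 3092 had 1, 35 (1.12%, 0.781% to 1.55%) had 2, and none had 3 or more (upper interval limit 0.118%). Conversely, 3 LRH-1 peaks reached into 2 FAIRE peaks. LRH-1 peaks were at least 219 bp wide and did not overlap each other, so these are counts of peaks and need not be counts of binding sites. FAIRE peaks with more LRH-1 peaks had a higher score and a greater width. The median score was 67.7 without LRH-1 (n = 18304), 91.6 with 1 and 120 with 2 (97.4 to 181). The median widths were 907, 990 and 1441 bp. Of the 35, 25 were in the widest of the 10 width groups, beside 607 of all 3127 FAIRE peaks with LRH-1. A wider peak also offers more room for 2 LRH-1 peaks, and this was not corrected for.

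In these 35 FAIRE peaks the LRH-1 summits were 317 to 1627 bp apart, with a median of 599 bp, and 11 pairs were under 500 bp apart. In 26 of them the summits lay on either side of the FAIRE midpoint, and in 26 both summits were inside the FAIRE peak. The stronger summit had a median fold of 6.07 and the weaker 4.80, and the ratio of stronger to weaker was between 1.01 and 2.17, with a median of 1.29. The stronger was the nearer to the midpoint in 17 of the 35. The 3 with the highest score are given with their place in mm9, the mouse genome build of all coordinates here. The first, with a score of 458 and folds of 6.38 and 4.68 at summits 590 bp apart, was on chromosome 9 at 48530977 to 48532479. The second, with a score of 301 and folds of 5.47 and 6.05 at summits 587 bp apart, was on chromosome 10 at 55186809 to 55188249. The third, with a score of 285 and folds of 4.64 and 4.20 at summits 599 bp apart, was on chromosome 4 at 149685336 to 149686909.

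The 2727 LRH-1 peaks outside listed FAIRE peaks were mostly not near misses. Their median distance to the nearest FAIRE peak was 15917 bp. Within 100 bp of a FAIRE peak there were 27 (0.990%), within 500 bp 125 (4.58%), within 1 kb 207 (7.59%), within 10 kb 1031 (37.8%) and within 50 kb 2164 (79.4%). Those of lower fold lay somewhat closer. With the list in 5 equal groups by fold, the median distance was 12.1 kb in the lowest group (10.4 to 14.3 kb) and 19.9 kb in the highest (15.5 to 24.5 kb), and 29.1% and 20.2% were within 5 kb. The 18304 FAIRE peaks without LRH-1 had a median distance of 95.5 kb to the nearest LRH-1 peak.

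The surroundings of LRH-1 peaks inside and outside open chromatin differed little in these lists. At least 1 other FAIRE peak lay within 50 kb of 79.2% of the peaks inside (77.7% to 80.6%) and of 79.1% of those outside (77.5% to 80.6%), with means of 1.86 and 1.95 other FAIRE peaks. The next LRH-1 peak was at a median of 60.9 kb (56.8 to 65.3 kb) from those inside and 55.2 kb (51.1 to 58.7 kb) from those outside. It was within 10 kb for 14.9% and 16.1%.

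By chromosome, the share of LRH-1 peaks in open chromatin was lowest on chromosome 5, with 174 of 371 (46.9%, 41.7% to 52.1%), and highest on chromosome 10, with 202 of 318 (63.5%, 58.0% to 68.8%). The X chromosome had 42 of 78 (53.8%), close to the whole list. Among FAIRE peaks it had the lowest share with LRH-1 of the 20 chromosomes, 41 of 411 (9.98%, 7.25% to 13.3%).

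Among the individual sites, the highest fold in open chromatin was 21.8, at an LRH-1 peak on chromosome 4 at 28103919 to 28104304. It lay in a FAIRE peak at 28103593 to 28104676 with a score of 280, and its summit was 35.5 bp from that peak's midpoint. The next was on chromosome 3 at 52579056 to 52579468, with a fold of 19.6, in a FAIRE peak at 52578547 to 52579861 (score 242, summit 53 bp from the midpoint). The third was on chromosome 11 at 53953531 to 53954257, with a fold of 18.6, in a FAIRE peak at 53953100 to 53954672 of score 681, the 60th highest of the list (summit 154 bp from the midpoint). All 3 summits were within the central 33.3% of the FAIRE peak. This last site was also among the 3 that ranked best in both lists.

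The other sites strong in both lists were off-centre. On chromosome 11 at 34495195 to 34495797 an LRH-1 peak with a fold of 14.8 lay in a FAIRE peak at 34495033 to 34496282 with a score of 819, which ranked 21st, and its summit was 291.5 bp from the midpoint. On chromosome 10 at 79896470 to 79896794 a fold of 12.0 went with a FAIRE peak at 79896301 to 79897441 of score 672, and the summit was 265 bp from the midpoint.

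The strongest LRH-1 peaks without a FAIRE peak were far from any listed one. The highest fold of the list, 30.1, was on the X chromosome at 73399408 to 73399826, 44386 bp from the nearest FAIRE peak. On chromosome 12 at 80599963 to 80600381 the fold was 23.5, at a distance of 32236 bp. On chromosome 6 at 30487887 to 30488304 it was 20.9, at 27518 bp. These 3 peaks had nearly the same width, 419, 419 and 418 bp, whereas the 3 of highest fold in open chromatin were 386, 413 and 727 bp wide.

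The 3 FAIRE peaks of highest score had no LRH-1 peak. The first, with a score of 2338.7, was on chromosome 5 at 60433426 to 60434848. The others were on chromosome 17, at 57170751 to 57171972 with a score of 1203 and at 56218077 to 56219216 with a score of 1201. The highest score with LRH-1 was 901, the 14th of the list, on chromosome 17 at 34740142 to 34741682, where a fold of 5.72 lay 547 bp from the midpoint. The next after the chromosome 11 site of score 819 was on chromosome 10 at 80288659 to 80289647, with a score of 734, a fold of 9.25 and a summit 282 bp from the midpoint.

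The lists made 4 hours after hCG, from other samples, held most of the same patterns at other levels, and no test between the lists was made. There, 3913 of 9413 LRH-1 peaks (41.6%) overlapped a FAIRE peak, and the share ran from 36.1% in the lowest of 10 fold groups to 60.4% in the highest. The median summit distance was 99 bp after hCG beside 80.5 bp before, and 68.2% of summits beside 76.2% were in the central 33.3%. From the lowest to the highest of 5 fold groups the distance went from 124.5 to 77 bp. Fold and FAIRE score had a rho of 0.072 over 3917 pairs. The best 1% of FAIRE peaks by score were not under the whole list after hCG. There, 45 of 227 (19.8%, 14.8% to 25.6%) had LRH-1, beside 3854 of all 22791 FAIRE peaks (16.9%). From the best 10% to the best 20%, 27.6% had it. Before hCG, 8.41% of the best 1% had it (5.06% to 13.0%), beside 14.6% of the whole list. These sets are not alike, with scores from 412 after hCG and from 487 before. The LRH-1 list was also longer after hCG, at 9413 peaks beside 5886.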

How the data were processed

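FAIRE and LRH-1 peaks were used as deposited, 1 list per assay before hCG; the lists after hCG served for orientation. Per the submitters' processing notes, reads were aligned with BWA to mm9 and the LRH-1 notes also name MACS2 2.1.0 and bedtools; no source used here gives the FAIRE caller. The lists have no header line, and columns were read by position. The authors deposited a score for each FAIRE peak (none under 40 here, and 575 peak numbers up to 22006 are not listed). For each LRH-1 peak the authors deposited a fold enrichment (a ratio) and −log10 p and q values in the narrowPeak layout.

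Overlaps, summit positions (from the deposited summit offset), exact binomial and order-statistic 95% intervals and rank correlations were computed with Python 3.11.15, numpy 2.4.6, pandas 2.3.3 and scipy 1.17.1. The code for overlaps, rank correlation and summit distance was tested on simulated peaks, and overlaps also against bedtools 2.31.1. The code for the 95% intervals was not tested. Equal groups were made by rank. With 1 list per assay no test was possible. Read depth is unknown. Named sites were the 3 best by fold inside and outside FAIRE peaks, by number of LRH-1 peaks, by FAIRE score with and without LRH-1, and by the worse of both ranks. Members and lists were chosen with earlier results of these data known. Alternatives varied the overlap rule, the part of each list used, the width of FAIRE peaks and the measure of strength. Gene positions, motifs and sequences, which need mm9, and the RNA tables were not used here.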

Additional observations from a re-analysis of the deposited data

How the results depend on the processing

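Of 55 alternatives for 9 results, 36 left the value within its interval, 19 moved it and 0 were labelled reversed. A reversal could be labelled only for the log2 difference in median fold and the rho of fold and FAIRE score. Shares and distances cannot change sign, and the rho of fold and FAIRE width had an interval that included 0. With the better 50% of LRH-1 peaks by −log10 q, the share of LRH-1 peaks in FAIRE peaks was 62.7%, the share of FAIRE peaks with LRH-1 was 8.55%, and 13.0% in the highest-scoring of 10 groups. The log2 difference in median fold inside against outside was then 0.082 (0.122 with all peaks), 80.6% of summits were in the central 33.3%, the median distance was 73.5 bp and 0.709% of FAIRE peaks with LRH-1 held 2. With the better 50% of FAIRE peaks by score, the shares were 36.0% and 19.5%, the distance 88 bp and the rho of fold and width -0.0046. With FAIRE peaks set to 500 bp around their midpoint, the shares were 50.6% and 13.9%, and 18.0% in the highest-scoring group. Requiring that 50% of the LRH-1 peak be covered gave 77.8% in the central 33.3%. With −log10 q as strength, the log2 difference was 0.323, and rho was 0.149 for score and 0.103 for width. With score held constant, the rho of fold and width was -0.033, so its sign was not stable. Another 4 results were added after seeing the data, under alternatives already in use for the others. The ninth score group exceeded the highest in 5 of 5, and the best 1% stood under the highest group, which contains it, in 5 of 5. The highest fold group exceeded the lowest in 5 of 5. The summit, 50% coverage and autosomes-only settings keep nearly the same pairs, so such agreement was likely in advance. With the better 50% of LRH-1 peaks the ninth score group moved to 16.1%. With the better 50% of FAIRE peaks the highest fold group moved to 56.4% and the lowest to 26.2%. With FAIRE peaks of 500 bp the lowest moved to 36.2%. Without replicate lists or read depth, the differences between groups of peaks have no error beyond counting.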
